A study of Argopecten irradians with 2 samples.

Results

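Tubulins and the enzymes that modify them were examined in the gills of the bay scallop (*Argopecten irradians*) after exposure to the algicide palmitoleic acid (PA). The control library came from scallops kept for 48 h with the solvent dimethyl sulphoxide alone (0 mg/L PA), and the PA library from scallops kept for 48 h with 80 mg/L PA in the same solvent. According to the sample labels each library pooled the gills of 18 animals, while the methods describe smaller replicate pools, so there was 1 library per condition and no difference below has a replicate check. The members were the assembled transcripts (unigenes) whose best Swiss-Prot hit names tubulin, whose best hit in the non-redundant protein database (Nr) belongs to an oyster, scallop, mussel, limpet, sea hare, sea urchin or lancelet genus from a fixed list, and which held a minimum of 10 reads over both libraries. Of 60308 listed unigenes, 90 named tubulin in Swiss-Prot, 57 of these also had such an Nr hit, and 50 reached 10 reads. The 50 members comprised 1 alpha chain, 3 beta chains, 5 gamma, delta or epsilon chains, 18 tubulin ligases, 2 subunits of the polyglutamylase complex, 5 tubulin chaperones, 13 gamma-tubulin complex components, 1 tubulin polymerization-promoting protein and 2 tau-tubulin kinases.

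Microtubules are polymers of alpha- and beta-tubulin pairs. They form the cytoskeletal tracks of every animal cell and the shafts of cilia, which drive water over the bivalve gill. After assembly the flexible tails of the chains are marked by added amino acids. Enzymes of the tubulin tyrosine ligase-like (TTLL) family add glutamate or glycine, and tubulin--tyrosine ligase restores the terminal tyrosine of alpha-tubulin. Gamma-tubulin and its complex start new microtubules, delta- and epsilon-tubulin are known from centrioles and basal bodies, and the tubulin chaperones assemble the alpha-beta pair.

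Expression is given as reads, which are the expected counts deposited by the authors, and as FPKM (fragments per kilobase of unigene, scaled to the fragments mapped in the library), the scale on which levels of different unigenes are compared. Where a pair of values is given, the control library comes first. The reads summed to 10305482 and 10414545. The log2 fold change divides PA by control FPKM for a unigene, or library-scaled reads for a sum. The 95% intervals (exact, Clopper-Pearson) are on the same log2 scale and cover counting error only. A unigene was called when the two-sided test of Audic and Claverie on its rounded reads gave a false discovery rate (FDR, by Benjamini and Hochberg over all listed unigenes) of at most 0.001 with a change of 2-fold or more. All FDR values below come from this test, which sets library against library and says nothing of the conditions behind them.

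Few of the members passed the call rule. Of the 50 members, 5 were called (10%), 3 of them higher and 2 lower in the PA library. Among all 38391 unigenes with at least 10 reads, 24.0% were called, 13.3% higher and 10.7% lower. The calls higher in the PA library were the polyglutamylase TTLL1, subunit 2 of the polyglutamylase complex (TPGS2) and a fragment of the monoglycylase TTLL3. The calls lower were the polyglutamylase TTLL4 and a contig of delta-tubulin. The FDR of the other 45 members was above the threshold or their fold change was under 2.

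Depth bears on these counts. The reads of a member in the libraries together ranged from 11 to 47432 with a median of 52.5, and 23 members held fewer than 50. Among unigenes with 10 to under 50 reads, 11.2% of all unigenes and 1 of the 23 members were called, and among those with 50 reads or more, 35.4% of all unigenes and 4 of the 27 members. The interval lay above 0 for 16 members, below 0 for 3 and held 0 for 31.

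The median log2 fold change of the members was 0.48, and 35 of 50 had a value above 0. Over all unigenes with at least 10 reads the median was 0.21, and over the other unigenes with Nr hits in the same genera it was 0.32. For members with fewer than 50 reads the median was 0.84, against 0.64 for other unigenes of the same genera at that depth. For members with 50 reads or more it was 0.21, against 0.23. Scaling by trimmed means (TMM) changed every log2 fold change by -0.25 and scaling by the median of ratios by -0.22, which gave member medians of 0.23 and 0.26 against -0.032 and -0.0061 over all unigenes.

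The count of called members also lay under the background with every other call rule run. With a change of 2-fold or more alone, 15 members (30%) passed against 46.3% of all unigenes, 13 of them higher (27.3% of all unigenes) and 2 lower (19.0%). With an FDR of at most 0.05 in place of 0.001, 8 members passed (16%) against 35.0%, 6 higher (20.1%) and 2 lower (14.9%). With TMM scaling the members kept 3 higher and 2 lower calls, against 9.97% higher and 14.0% lower over all unigenes, and with the median of ratios 3 and 2, against 10.4% and 13.7%. With a pseudocount of 0.1 FPKM 5 members were called against 23.8% (13.2% higher and 10.6% lower), and with 1 FPKM 3 were called against 21.4%, 3 higher (11.8%) and 0 lower (9.66%). With the Benjamini-Yekutieli adjustment 4 members were called against 20.6%, 3 higher (11.2%) and 1 lower (9.39%). With a change of 4-fold or more 1 member was called against 13.1%, 1 higher (6.97%) and 0 lower (6.11%). The exact test of edgeR called 0 members when the biological coefficient of variation (BCV) was assumed to be 0.2, against 9.82% (5.06% higher and 4.76% lower). At that BCV 8 members (16%) had an unadjusted p under 0.05 by this test, against 36.2% of all unigenes. At a BCV of 0.4 the test called 0 members against 1.60% (0.581% higher and 1.02% lower). There 1 member (2%) had an unadjusted p under 0.05, against 17.9% of all unigenes.

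**Figure D1:**
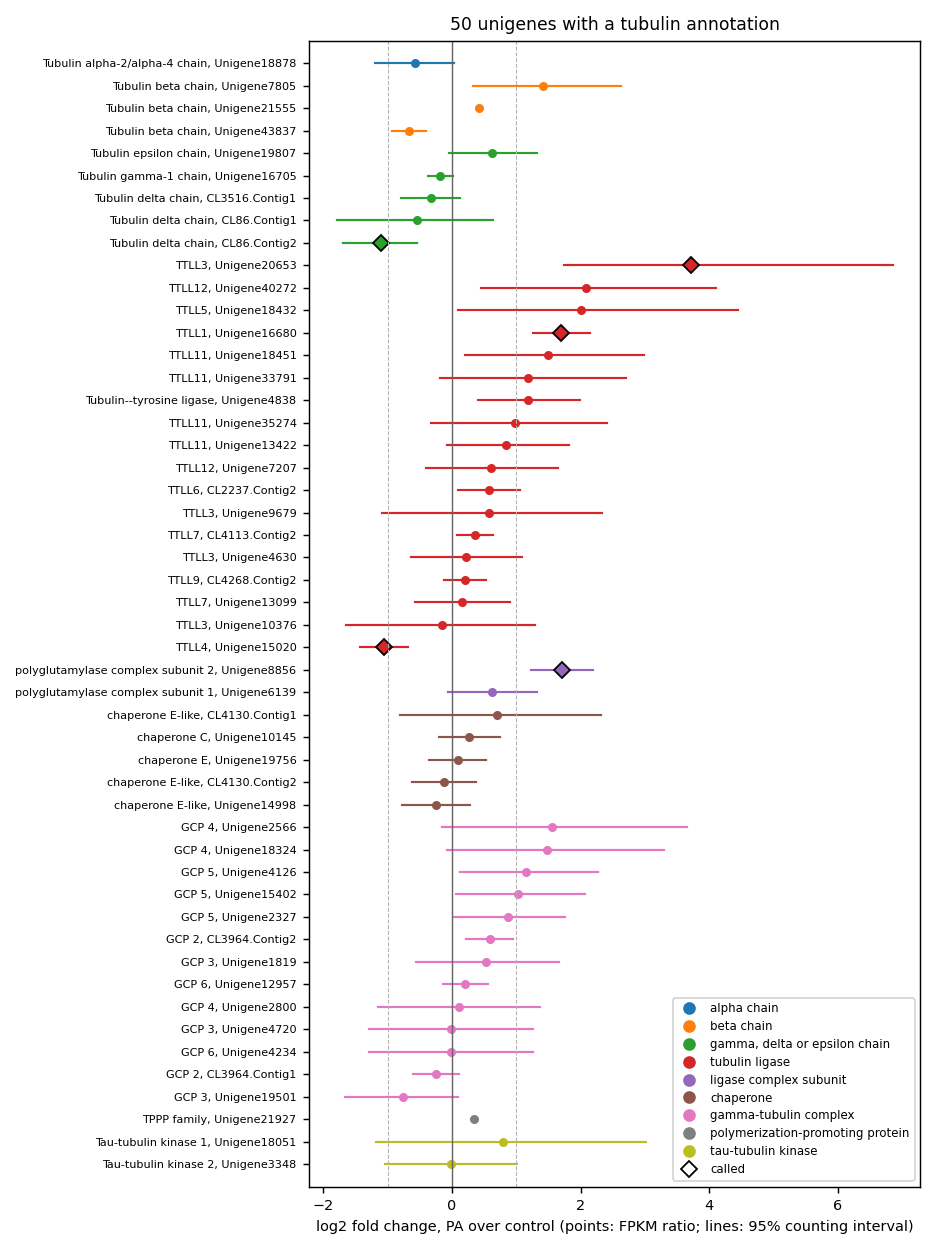
Log2 fold change (PA over control, FPKM ratio) of each of the 50 members with its 95% counting interval, coloured by class; black-edged diamonds are the 5 called unigenes and dashed lines mark a 2-fold change. The ligases lie mostly right of 0, with TTLL4 at -1.06 as the exception among the called ones, and the delta chains lie left of it.

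Among the chains that were members, beta-tubulin held most of the reads. This came from the choice by Nr hit, since alpha-tubulin took the larger share in the wider set given below. Unigene21555_All (1641 bp, best Swiss-Prot hit the beta chain of the sea urchin *Paracentrotus lividus*) held 20132 and 27299 reads, which was 68.3% and 70.3% of all member reads. Its FPKM was 1224 and 1644. The log2 fold change of 0.43 (95% interval 0.40 to 0.45) had an FDR of 6.21e-220 by the test of Audic and Claverie, but at 1.34-fold it did not reach the 2-fold threshold and was not called. The fragment Unigene43837_All (291 bp) had an FPKM of 120.0 and 75.8, from 297 and 189 reads (log2 fold change -0.66, interval -0.94 to -0.40). The fragment Unigene7805_All (269 bp) had 10 and 27 reads (log2 fold change 1.42, interval 0.33 to 2.63, FDR 0.028). The beta chain unigenes thus lay on either side of no change, and their summed reads, 20439 and 27515, followed Unigene21555_All (log2 fold change 0.41, interval 0.39 to 0.44). Without it the sum went from 307 to 216 reads (log2 fold change -0.52). A beta chain with more reads, Unigene20729_All, had its best Nr hit in a sea squirt and was no member. It held 39058 and 55371 reads, an FPKM of 2098 and 2945 (log2 fold change 0.49, interval 0.47 to 0.51).

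The only alpha chain among the members was Unigene18878_All, a 519 bp unigene with 59 and 40 reads. Its FPKM was 12.2 and 8.21 (log2 fold change -0.57, interval -1.19 to 0.028). That alpha-tubulin was represented by so few reads was a result of the choice by Nr hit. Alpha- and beta-tubulin are among the most conserved proteins of animals. For 33 of the 90 unigenes with tubulin in the Swiss-Prot description the best Nr hit belonged to some other genus. Such hits included a leech, an insect, a sea squirt and vertebrates, and for 6 unigenes the hit was a protist. Most of the 33 were alpha or beta chains. The rest were chaperones, a gamma-tubulin complex component and a tau-tubulin kinase. Of the 33, 28 held at least 10 reads. The unigene with the most reads of them, CL939.Contig5_All (1643 bp, best Nr hit alpha-1 tubulin of the leech *Hirudo medicinalis*), held 90088 and 126165 reads (log2 fold change 0.47, interval 0.46 to 0.48). The other contigs of its cluster included CL939.Contig1_All with 24118 and 38316 reads and CL939.Contig2_All with 3366 and 9730 reads (log2 fold change 1.52, called higher). These contigs are similar enough to be clustered, so the split of reads between them is uncertain, and the reads of the cluster together went from 117771 to 174404 (log2 fold change 0.55, interval 0.54 to 0.56).

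With every alpha and beta chain counted except those with a protist as best Nr hit, alpha-tubulin took 1.14% of the control library and 1.68% of the PA library, and beta-tubulin 0.668% and 0.930%. The summed reads of these 7 alpha chains had a log2 fold change of 0.55 (interval 0.54 to 0.56), a 1.46-fold difference, and those of the 16 beta chains a log2 fold change of 0.48 (interval 0.46 to 0.49), a 1.39-fold difference. The sign of the alpha value thus turned with the choice of Nr hits, although the interval of the single alpha member held 0. The beta sum stayed above 0 with either choice, but among the members this rested on Unigene21555_All (-0.52 without it). The 2 sums of the wider choice stayed above 0 after either of the other scalings, since these changed them by -0.25 and -0.22.

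**Figure D2:**
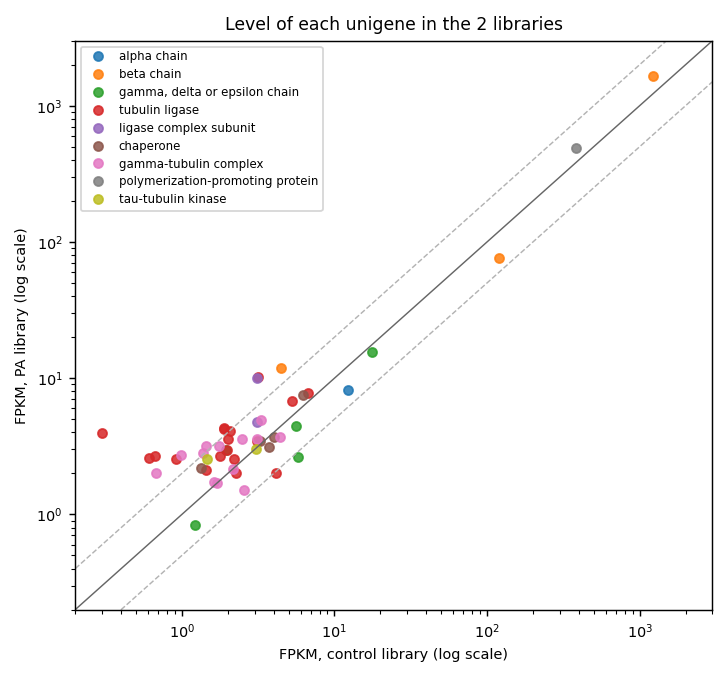
FPKM of each of the 50 members in the control library (x) and the PA library (y), both on log scales; the solid line marks equal levels and the dashed lines a 2-fold difference. The beta chain Unigene21555_All and the polymerization-promoting protein stand apart at the upper right, and 1 beta chain fragment at 120.0 and 75.8 FPKM follows.

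The rarer chains were lower or not distinguishable between the libraries. Gamma-tubulin (Unigene16705_All, 2653 bp), which caps the start of a microtubule, had an FPKM of 17.6 and 15.5, from 473 and 421 reads (log2 fold change -0.18, interval -0.38 to 0.0093). Delta-tubulin, known for its part in the triplet microtubules of centrioles, was represented by 3 unigenes, each with a log2 fold change below 0. CL86.Contig2_All (1447 bp) went from 82.7 to 38.8 reads, an FPKM of 5.73 and 2.66 (log2 fold change -1.11, interval -1.70 to -0.54, FDR 2.61e-04), and was called lower. CL86.Contig1_All had 16.3 and 11.2 reads, and the sum over its cluster was 99 and 50 reads (log2 fold change -1.0, interval -1.52 to -0.50). The third, CL3516.Contig1_All (1630 bp), had 91 and 73 reads (log2 fold change -0.33, interval -0.80 to 0.13). Together the delta chains went from 190 to 123 reads (log2 fold change -0.64, interval -0.98 to -0.31). Epsilon-tubulin (Unigene19807_All, 1650 bp) had 32 and 50 reads (log2 fold change 0.62, interval -0.040 to 1.32). The call of CL86.Contig2_All was lost with a pseudocount of 1 FPKM (log2 fold change -0.88) and with the Benjamini-Yekutieli adjustment.

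Among the tubulin ligases, TTLL1 changed most among those with 50 reads or more. In mouse TTLL1 is the catalytic subunit of a polyglutamylase complex that also contains TPGS1 and TPGS2, and it acts on the tubulin of cilia and sperm tails. TTLL1 (Unigene16680_All, 1766 bp) held 56 and 183 reads, an FPKM of 3.16 and 10.2. It was 3.23-fold higher with PA (log2 fold change 1.69, interval 1.25 to 2.15, FDR 1.69e-15). TPGS2 (Unigene8856_All, 1547 bp), a non-catalytic subunit, held 48 and 158 reads, an FPKM of 3.10 and 10.1, and was 3.26-fold higher (log2 fold change 1.71, interval 1.23 to 2.2, FDR 1.47e-13). TPGS1 (Unigene6139_All, 1020 bp), another non-catalytic subunit, held 31 and 48 reads, an FPKM of 3.10 and 4.75 (log2 fold change 0.62, interval -0.066 to 1.32), and was not called. The levels of TTLL1 and TPGS2 lay close together in each library, while that of TPGS1 matched them in the control library only. The reads of TTLL1, TPGS1 and TPGS2 together went from 135 to 389 (log2 fold change 1.51, interval 1.23 to 1.8).

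TTLL4, a polyglutamylase that in mammals also acts on proteins other than tubulin, went the other way. Unigene15020_All (4444 bp) held 189 and 92 reads, an FPKM of 4.16 and 2.0. It was 2.08-fold lower with PA (log2 fold change -1.06, interval -1.43 to -0.69, FDR 2.74e-08). With a pseudocount of 1 FPKM the log2 fold change was -0.78 and the call was lost. The intervals of TTLL1 and TTLL4 lay on opposite sides of 0, which follows from their calls in opposite directions and adds nothing to these calls.

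TTLL7 and TTLL9 held the most reads of the ligases. TTLL7 (CL4113.Contig2_All, 3599 bp), a polyglutamylase that in mammals prefers beta-tubulin, had an FPKM of 5.28 and 6.78, from 194 and 251 reads (log2 fold change 0.36, interval 0.083 to 0.64). TTLL9 (CL4268.Contig2_All, 2147 bp), known from the cilium, had an FPKM of 6.73 and 7.76, from 146 and 170 reads (log2 fold change 0.21, interval -0.12 to 0.53). Neither was called, and the value of TTLL9 turned to -0.040 after TMM and -0.014 after median-of-ratios scaling. The other contig of the TTLL9 cluster has no Swiss-Prot entry and so was no member. It held 0 and 14.1 reads, and the whole cluster went from 146 to 184 reads. TTLL6 (CL2237.Contig2_All, 3070 bp), a polyglutamylase known for long glutamate chains on alpha-tubulin, held 62 and 93 reads (log2 fold change 0.58, interval 0.091 to 1.06).

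Several ligases were split over short unigenes, so reads were also summed by protein name. The monoglycylase TTLL3, which puts the first glycine on tubulin tails, had 4 unigenes. Its fragment Unigene20653_All (704 bp) held 2 and 27 reads (log2 fold change 3.73, interval 1.75 to 6.86, FDR 1.22e-05) and was the ligase with the largest fold change and the only called one with under 50 reads. The other TTLL3 unigenes held 23 and 27, 10 and 9, and 6 and 9 reads, so that TTLL3 as a whole went from 41 to 72 reads (log2 fold change 0.80, interval 0.22 to 1.39). The 4 unigenes of TTLL11, a polyglutamylase of chain elongation, each had a log2 fold change above 0 and together went from 38 to 81 reads (1.08, interval 0.50 to 1.67), while none of them was called alone.

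TTLL12, a family member for which no ligase activity on tubulin is established, went from 19 to 40 reads over 2 unigenes (log2 fold change 1.06, interval 0.24 to 1.93). TTLL5, a polyglutamylase known for acting on alpha-tubulin, held 3 and 12 reads (log2 fold change 2.0, interval 0.095 to 4.45). Tubulin--tyrosine ligase (Unigene4838_All, 1133 bp) held 21 and 48 reads, an FPKM of 1.88 and 4.25 (log2 fold change 1.18, interval 0.41 to 1.99, FDR 0.0073), and was not called. The ligases were thus mostly of low depth, with 10 of the 18 under 50 reads.

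Over the 18 ligases, 2 were called higher and 1 lower (16.7%, against 24.0% of all unigenes). A log2 fold change above 0 was found in 16 of them, or 13 after either TMM or median-of-ratios scaling. Without such scaling it was found in 21542 of the 38391 unigenes and in 9628 of the 15987 other unigenes of the same genera. The median of the ligases was 0.72, with 1.08 for the 10 under 50 reads and 0.29 for the 8 with 50 reads or more. For other unigenes of the same genera the median was 0.64 under 50 reads and 0.23 with 50 or more. The summed reads of the ligases went from 800.0 to 1077 (log2 fold change 0.41, interval 0.28 to 0.55), and without TTLL1 the log2 fold change was 0.25 (interval 0.11 to 0.39). The sum over the 18 was 0.17 after TMM and 0.19 after median-of-ratios scaling.

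**Figure D3:**
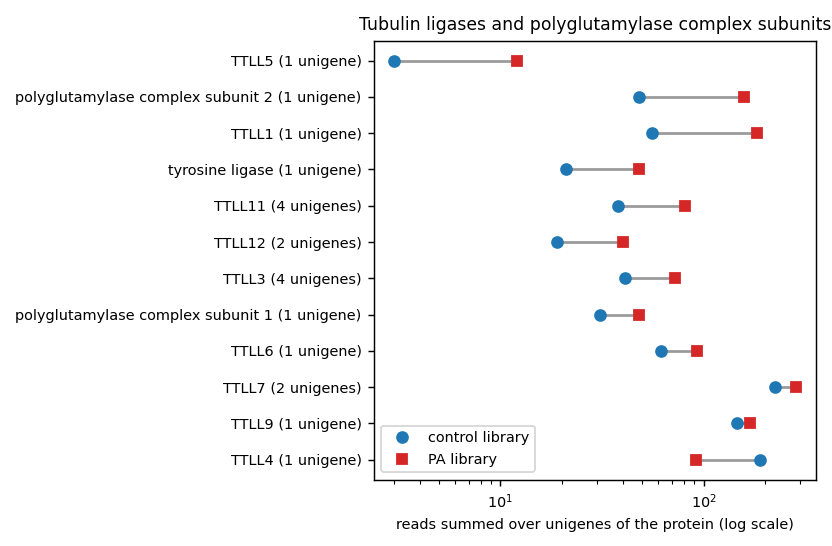
Reads in the control library (circles) and the PA library (squares) summed over the unigenes of each tubulin ligase and polyglutamylase complex subunit, on a log scale, ordered by fold change. TTLL4 is the only protein with fewer reads in the PA library, and TTLL1 and TPGS2 show similar steps from 56 to 183 and from 48 to 158 reads.

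The gamma-tubulin complex components, which form the ring from which microtubules grow, had 13 unigenes and no call, beside 24.0% of all unigenes called. Their median was 39 reads, and of all unigenes with 10 to under 50 reads 11.2% were called. GCP6 (Unigene12957_All, 3965 bp) held 126 and 147 reads (log2 fold change 0.21, interval -0.15 to 0.56), or -0.038 after TMM and -0.012 after median-of-ratios scaling. GCP2 had 2 contigs that moved apart. CL3964.Contig2_All (3223 bp) went from 108 to 163 reads and CL3964.Contig1_All (3228 bp) from 145 to 123, and the whole cluster from 253 to 286 reads (log2 fold change 0.16, interval -0.087 to 0.41). The 3 unigenes of GCP5 each lay above 0 and together went from 45 to 91 reads (log2 fold change 1.0, interval 0.47 to 1.55). Those of GCP4 went from 21 to 39 reads (0.88, interval 0.077 to 1.72) and those of GCP3 from 57 to 50 (-0.20, interval -0.78 to 0.37). Over all 13 the summed reads went from 514 to 625 (log2 fold change 0.27, interval 0.096 to 0.44).

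The tubulin chaperones among the members did not differ beyond counting error. Chaperone E (Unigene19756_All, 2549 bp), which works on the alpha chain, held 84 and 90 reads (log2 fold change 0.086, interval -0.36 to 0.53), or -0.16 after TMM and -0.13 after median-of-ratios scaling. Chaperone C (Unigene10145_All, 1120 bp), which helps to release the finished alpha-beta pair, held 69 and 84 reads (log2 fold change 0.27, interval -0.21 to 0.75). The 5 chaperone members together went from 301 to 311 reads (0.032, interval -0.20 to 0.27). Chaperones with more reads had Nr hits in other genera. Chaperone A (Unigene18593_All), which binds the beta chain, held 871 and 535 reads (log2 fold change -0.72, interval -0.88 to -0.56). Chaperone D (Unigene5968_All), which also works on the beta chain, held 810 and 463 reads (log2 fold change -0.82, interval -0.99 to -0.66). Neither reached a 2-fold change. With them the summed reads of 10 chaperone unigenes went from 2438 to 1702 (log2 fold change -0.53, interval -0.62 to -0.44), which is opposite in sign to the summed reads of the wider set of alpha and beta chains.

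The tubulin polymerization-promoting protein (Unigene21927_All, 1715 bp), a member of a family that bundles microtubules, was the second most abundant member. Its FPKM was 382 and 485, from 6574 and 8435 reads (log2 fold change 0.35, interval 0.30 to 0.39), and at 1.27-fold it was not called. Tau-tubulin kinase 2 (Unigene3348_All, 625 bp), a kinase known to start cilium formation in mammals, held 18 reads in each library. Tau-tubulin kinase 1 (Unigene18051_All, 316 bp) held 4 and 7 reads and lay just inside the minimum of 10 reads. The next members above it, fragments of TTLL5 and TTLL3, held 15 reads in the libraries together. Just outside it lay a TTLL5 fragment with 2 and 6 reads and a GCP4 fragment with 6 and 1.

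Other microtubule genes were collected by Swiss-Prot names under the same Nr genera and minimum of reads. The cytosolic carboxypeptidases, which remove glutamates from tubulin tails and so work against the polyglutamylases, had 7 unigenes. Of these 1 was called higher and 0 lower (14.3%, beside 24.0% of all unigenes). Carboxypeptidase 2 (CL1741.Contig2_All) held the most reads, 114 and 158 (log2 fold change 0.45, interval 0.099 to 0.82). Another unigene of the same name, Unigene124_All, went from 23 to 65 reads (log2 fold change 1.48, interval 0.78 to 2.24, FDR 6.36e-05) and was called higher. Together the 7 went from 212 to 325 reads (log2 fold change 0.60, interval 0.35 to 0.86). The deacetylases HDAC6 and sirtuin-2, which remove the acetyl mark of alpha-tubulin, had 4 unigenes and no call (beside the same 24.0%). Sirtuin-2 (Unigene15698_All) held 123 and 202 reads, with an interval from 0.37 to 1.03. Of 2 unigenes of vasohibin-2, which removes the last tyrosine of alpha-tubulin, Unigene4132_All held 19 and 23 reads. The other, CL5132.Contig2_All, held 18.0 and 0 reads and was called lower (interval below -2.15).

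The severing enzymes katanin and spastin had 5 unigenes and no call, beside 24.0% of all unigenes called. Katanin p60 (Unigene2720_All) held 246 and 306 reads (interval 0.053 to 0.55). The list of plus-end proteins was collected by name (CLIP, CLIP-associating protein 1 and cytoskeleton-associated protein 5). Whether each of these proteins binds plus ends was not tested. Of the 12 unigenes of the list 1 was called higher and 2 lower (25%, beside 24.0% of all unigenes). The summed reads went from 898 to 651 (log2 fold change -0.48), although 8 of the 12 had a log2 fold change above 0 and their median was 0.19. A large part of this fall lay in the linker protein CLIP3 (Unigene1738_All). It went from 310 to 84 reads (log2 fold change -1.90, interval -2.26 to -1.55, FDR 7.18e-31). CL1656.Contig4_All of CLIP1 held 0 and 20.3 reads (interval above 2.31), while CL1656.Contig3_All of the same cluster went from 128 to 8.88 reads.

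The 24 unigenes of proteins that bind along microtubules or to free tubulin held 7 calls higher and 2 lower. These 37.5% stood beside 35.4% of all unigenes and 37.6% of other unigenes of the same genera with 50 reads or more, and the median of the list was 319 reads. The summed reads of the list went from 5688 to 10147 (log2 fold change 0.82, interval 0.77 to 0.87). The unigene with the most reads, CL960.Contig3_All, similar to the fly protein futsch, went from 568 to 2116 reads (log2 fold change 1.88, interval 1.75 to 2.02). Other contigs of its cluster included CL960.Contig4_All (672 and 1735 reads) and CL960.Contig5_All (750 and 730 reads), so the split of reads between them is uncertain. The 11 futsch-like unigenes together went from 5152 to 8629 reads (log2 fold change 0.73, interval 0.68 to 0.78), with 3 called higher and 1 lower. The largest change among the called ones was a fragment of EMAP-like 5 (Unigene45072_All) with 2 and 22 reads (log2 fold change 3.44, interval 1.42 to 6.58). The 6 EMAP-like unigenes together went from 412 to 1197 reads (log2 fold change 1.52, interval 1.36 to 1.69), with 3 called higher and 1 lower. Stathmins, which bind free tubulin pairs, went from 59 to 205 reads over 2 unigenes (log2 fold change 1.78, interval 1.36 to 2.22).

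The general folding machinery that makes new tubulin and actin chains moved in both directions. The 9 T-complex protein 1 unigenes went from 9456 to 8890 reads (log2 fold change -0.10, interval -0.15 to -0.062) and the 8 prefoldin unigenes from 1718 to 2149 (0.31, interval 0.22 to 0.40). Of the 17 unigenes 2 were called higher and 2 lower (23.5%, beside 24.0% of all unigenes), and their summed reads went from 11174 to 11039 (log2 fold change -0.033, interval -0.071 to 0.0053). Within it, T-complex subunit theta (Unigene8055_All) held the most reads, 3385 and 2427, with an interval from -0.57 to -0.42. The largest change among the called ones was that of a prefoldin subunit 3 contig, CL3296.Contig3_All, from 48.2 to 14.5 reads (log2 fold change -1.74). Other contigs of that cluster were called in both directions.

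**Figure D4:**
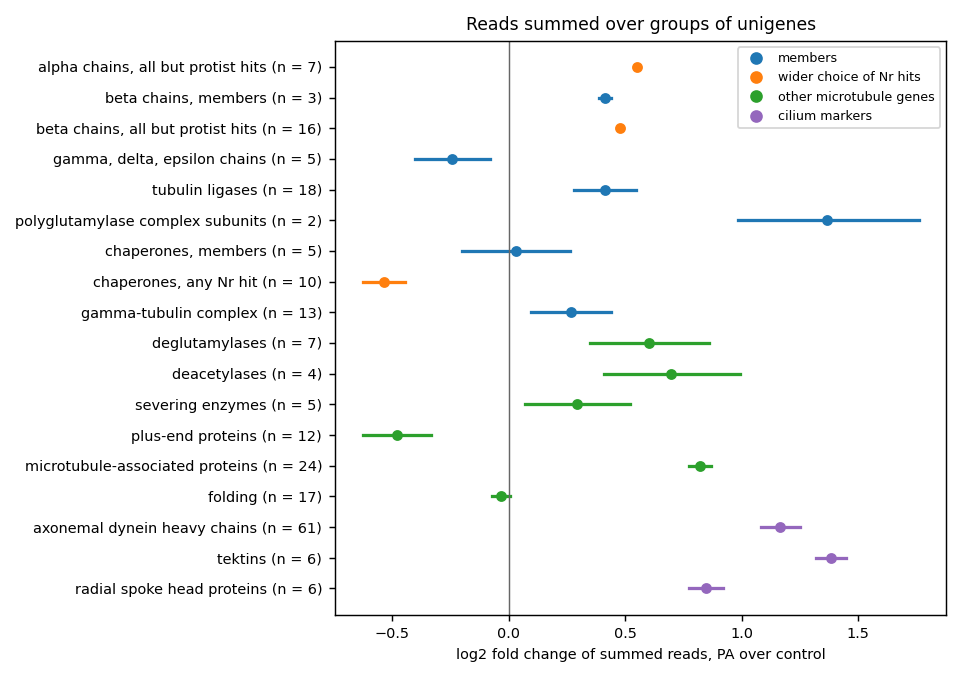
Log2 fold change (PA over control, library totals) of the reads summed over groups of unigenes, with 95% counting intervals; n is the number of unigenes. The polyglutamylase complex subunits (1.37) and the tektins (1.38) lie farthest to the right of the groups drawn. The beta chains and the alpha chains of the wider choice of Nr hits lie near 0.5. The list of plus-end proteins, with a large part of its fall in CLIP3, and the wider set of chaperones lie left of 0. The single alpha member (-0.58, interval -1.19 to 0.028) is not drawn. Smaller families such as stathmins (1.78) and EMAP-like proteins (1.52) are not drawn.

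Markers of ciliated cells moved with the libraries. Of 74 unigenes annotated as axonemal dynein heavy chain, tektin, radial spoke head protein or FOXJ1, 18 were called higher and 0 lower, and 69 had a log2 fold change above 0. The called share was 24.3%, against 24.0% of all unigenes (13.3% higher) and 30.3% of other unigenes of the same genera. These shares are not matched for depth, and the median of the list was 22 reads. Of all unigenes, 11.2% of those with 10 to under 50 reads were called and 35.4% of those with 50 or more. The summed FPKM of the 74 unigenes was 321 and 732, and their reads went from 7016 to 15836 (log2 fold change 1.16, interval 1.12 to 1.2). The 6 tektins, which run along the doublet microtubules, were all called higher, with summed reads of 2859 and 7541 (log2 fold change 1.38, interval 1.32 to 1.45). FOXJ1, the transcription factor of motile cilia, held 106 and 163 reads. Each of these families, defining for the ciliated gill, was present in both libraries. In these bulk libraries a larger share of ciliated cells and more of these transcripts per cell cannot be told apart, and the part of this shift in the values of the ligases was not tested.

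Markers of other cell types were also present. The 13 muscle unigenes (paramyosin, troponin and striated myosin) had a summed FPKM of 163 and 208. Of them 3 were called higher and 0 lower (23.1%, against 24.0% of all unigenes). Paramyosin went from 2699 to 2410 reads (log2 fold change -0.18), troponin from 1077 to 2087 (0.94) and striated myosin from 1421 to 2034 (0.50). The 59 unigenes with mucin in the Swiss-Prot name had a summed FPKM of 1002 and 932 but summed reads of 15038 and 19470 (log2 fold change 0.36, interval 0.33 to 0.39). A single unigene, Unigene9243_All (mucin-22), went from 3243 to 7309 reads and so held much of the difference in summed reads. Of the 59 unigenes 21 were called higher and 10 lower (52.5%), beside 24.0% of all unigenes (13.3% higher and 10.7% lower). The median of the list was 279 reads. With 50 reads or more, 35.4% of all unigenes and 37.6% of other unigenes of the same genera were called. The match by name also took in a mucin-like hormone receptor and sialomucin core protein 24. Of the germ line list, no unigene named vitellogenin, vasa or protamine passed the choice. The 17 named as spermatogenesis-associated held 1217 and 1514 reads, with 3 called higher and 1 lower (23.5%). Among these, 2 contigs of SPATA6 held 0 control reads and 90.4 and 74.0 PA reads, and a SPATA22 unigene held 97 and 0. Their part in the values of the tubulins was not tested.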

How the data were processed

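Gill RNA was sequenced as 1 paired-end library per condition. The authors cleaned reads (SOAPnuke), built transcripts (Trinity), clustered these to unigenes (TGICL) and quantified them (Bowtie, RSEM). The deposited values used are, for every unigene, an expected count, an FPKM and the database hits. The authors' own comparison (fold changes, p-values and FDR) was not used. Reads were mapped to unigenes, so near-identical tubulin genes may share reads.

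Members were chosen by annotation and a minimum of 10 reads. The members, classes and lists were chosen with earlier results of these data known. Named unigenes are the 2 with the most reads in each class, the 8 highest and 8 lowest called ones, their clusters and, of each other list, the one with the most reads and the largest called change. Unigene7805_All, TTLL5, TTLL6, TTLL11, TTLL12, tubulin--tyrosine ligase, epsilon-tubulin, GCP3 to GCP5, the summed families, the SPATA unigenes and the unigenes with other Nr hits lie outside this rule and were named after their values were seen. Unigenes missing from a library were taken as 0 reads. An FPKM of 0 was set to 0.01. Expected counts were rounded for the tests. Alternatives were TMM (edgeR 4.0.16) and median-of-ratios scaling, minimums of 0 and 50 reads, adding 0.1 or 1 FPKM as pseudocount, adjusting by Benjamini-Yekutieli, a 4-fold threshold, an FDR threshold of 0.05, edgeR's exact test at assumed biological coefficients of variation (BCV) of 0.2 and 0.4, summed clusters and any Nr hit. Chosen after seeing the data were the choice without protist hits, the beta chains without Unigene21555_All, and sums by protein name. The calling was tested on simulated libraries. Python 3.11.15, numpy 2.4.6, scipy 1.17.1, pandas 2.3.3, matplotlib 3.10.9 and R 4.3.3 were used. No unigene sequences were used here.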

Additional observations from a re-analysis of the deposited data

How the results depend on the processing

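With 1 library per condition the spread between pools of scallops is not known, and the calls rest on counting error alone. With an assumed BCV of 0.2 the exact test of edgeR called 3769 of all unigenes and 0 members, with 0.0012 as the smallest adjusted p of a member. By this test 8 members (16%) had an unadjusted p under 0.05, against 36.2% of all unigenes. With a BCV of 0.4 the test called 616 and 0 members, and 1 member (2%, against 17.9% of all unigenes) had an unadjusted p under 0.05. None of the 3 higher and 2 lower calls was thus kept. A fold change of at least 4 left 5024 calls over all unigenes and 1 member, higher, the TTLL3 fragment with 2 reads in the control library, with 0 lower. A pseudocount of 1 FPKM left 3 members called, with 0 lower, and the Benjamini-Yekutieli adjustment left 1 lower. With any Nr hit the set grew to 78 unigenes, of which 14 were called (17.9%, still under 24.0%), 8 higher and 6 lower, and without protist hits 11 were called, 8 of them higher. With clusters summed, 6013 clusters and singletons were called in all. The summed alpha chains turned from -0.58 to 0.55 with any Nr hit, or also 0.55 without protist hits, since the single member then gives way to chains with far more reads. The summed beta chains moved to 0.17 (TMM), 0.19 (median of ratios), 0.48 with any Nr hit and 0.48 without protist hits, and to -0.52 without Unigene21555_All. The summed ligases moved to 0.17 (TMM) and 0.19 (median of ratios). TTLL9 turned to -0.040 and -0.014, GCP6 to -0.038 and -0.012, and chaperone E to -0.16 and -0.13 under these scalings, all uncalled. The median of the members kept its sign under every alternative run. Of the values of named unigenes under the alternatives, 153 kept direction and call, 17 lost a call and 6 changed sign. Most named unigenes were never called and had no call to lose, and the stricter call rules left every fold change as it was. The 17 lost calls all fell on the few called unigenes, so the 153 do not measure how firm those calls are. No paired analysis was possible because each condition had 1 library, and none could be left out.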

Other observations

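Some of the unigenes with tubulin in the Swiss-Prot description had a protist as best Nr hit and were not members. There were 6 of these (5 chains and a tau-tubulin kinase fragment), and their reads together went from 297 in the control to 54 with PA (log2 fold change -2.47, interval -2.92 to -2.05). The alpha chain Unigene19945_All, with the ciliate *Tetrahymena thermophila* as best hit, held 140 reads and 21 (log2 fold change -2.75, interval -3.49 to -2.08, Audic-Claverie FDR 4.90e-22). The beta chain Unigene19918_All, with the same ciliate as best hit, held 124 and 32 reads (log2 fold change -1.97, interval -2.58 to -1.40, Audic-Claverie FDR 2.54e-13). The alpha chains Unigene23143_All and CL939.Contig6_All, with kinetoplastids as best hits, held 16 and 11 control reads and no PA reads (intervals below -1.96 and -1.34). CL939.Contig6_All belongs to the same cluster as the most abundant alpha chain contigs. Of the other chains, Unigene33772_All (beta, 881 and 2579 reads, log2 fold change 1.54), Unigene6156_All (beta, 74 and 364 reads, 2.29) and Unigene20520_All (alpha, 143 and 40 reads, -1.85) were also called, each with an Nr hit in an animal.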
